A study of Mus musculus with 72 samples.

Results

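Transcripts of 7 genes that are active in skeletal muscle were measured in 36 tumours that grew in the thigh muscle of mice. The genes are Mb, Myod1, Ldb3, Ank1, Pcx, Acacb and Abcb4, 7 of the 1224 different genes on the panels used. They were chosen by name and selected on an earlier reading of the same counts, in which their levels rose and fell together from mouse to mouse within groups. Their co-variation is therefore given as a description, with no test. All 7 passed the filter on low counts, as did 1038 of the 1224 genes. Control tumours held low levels of the 7 genes, with 1 exception, and 5 of the 7 were higher than in controls in tumours that received both treatments of the study, where 47.6% of all genes tested changed in either direction. Without the highest of these tumours 4 of the 5 calls were lost (45.9% of all genes called), and without the exceptional control all 7 genes were called (52% of all genes). The levels spread over 15.9-fold (Pcx) to 136-fold (Ldb3) between the lowest and the highest of the 36 mice.

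All 36 mice were female BALB/c animals aged 6 to 12 weeks, and all carried 4T1 tumours. 4T1 is a line of mammary carcinoma cells that came from a BALB/c mouse. They were injected into thigh muscle on day -6, the mice were treated on day 0, and tumours were taken on day 6. The sample labels call the tissue an orthotopic tumour, whereas the design text names the thigh as the site. Control mice received 400 µg of an isotype antibody, which binds no target in the mouse. The second group received 492 µg of bintrafusp alfa (BA, labelled M7824), an antibody against PD-L1 fused to the extracellular domain of a TGF-β receptor, which traps TGF-β. The third group received radiation and 400 µg of the isotype antibody (RT), and the fourth received radiation and bintrafusp alfa (BA+RT). Each group held 9 mice. The sources used here name no dose of radiation. The design asks what each treatment changed, and whether the effect of BA depended on radiation.

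Skeletal muscle fibres are long fused cells packed with sarcomeres, the contractile units, which are anchored at Z-discs and wrapped by a store of calcium, the sarcoplasmic reticulum. Their identity is set by transcription factors of the MyoD family, which bind short DNA motifs called E-boxes. Fibres that work by oxidation are rich in myoglobin and fat-burning enzymes, while fast fibres hold more of the calcium buffer parvalbumin. In tumours grown in a muscle, fibres of the host can lie beside or between the tumour cells. In bulk tissue fewer cells of a type and less RNA per cell cannot be told apart.

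Each gene was read by 1 amplicon, a short stretch copied by a primer pair, and the sequence shows which part of each transcript a count stands for. Positions are on GRCm38, and sequences are the transcripts of GENCODE M21. The Mb amplicon (chr15:77015861-77015958, minus strand) lies in exon 3, the last of 3 exons. It holds the last 30 coding bases before the stop codon (chr15:77015929-77015958) and the 68 bases after them, which are the stop codon and part of the 3′ UTR. The Ldb3 amplicon (chr14:34579320-34588473, minus strand) joins exons 2 and 3 and starts 4 bases before the start codon, and it is present in 7 of 7 coding transcripts. The Ank1 amplicon (chr8:23140146-23141178, plus strand) joins exons 41 and 42 of a transcript with 44 exons. It is held by 11 of 13 coding transcripts. Which of these are the short muscle form of ankyrin-1 and which the long red cell form was not examined, so its count is not assigned to either. The Pcx amplicon (chr19:4620441-4620539, plus strand) lies in exon 19 of 21, the Acacb amplicon (chr5:114229820-114229914, plus strand) in exon 36 of 53 and the Abcb4 amplicon (chr5:8946023-8946117, plus strand) in exon 22 of 28. The Myod1 amplicon (chr7:46378926-46379020, plus strand) lies wholly in the 3′ UTR, in the last exon, and is not printed. The coding parts of the other 6 follow, 5′ to 3′, and capitals mark the second exon of the 2 amplicons that cross a splice junction.
Mb: gccaagtacaaggagctaggcttccagggc
Ldb3: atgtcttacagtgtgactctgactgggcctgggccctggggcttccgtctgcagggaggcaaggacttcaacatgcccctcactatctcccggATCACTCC
Ank1: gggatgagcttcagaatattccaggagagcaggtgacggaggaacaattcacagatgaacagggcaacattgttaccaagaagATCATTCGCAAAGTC
Pcx: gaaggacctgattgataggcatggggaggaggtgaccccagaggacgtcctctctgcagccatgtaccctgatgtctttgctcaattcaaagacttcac
Acacb: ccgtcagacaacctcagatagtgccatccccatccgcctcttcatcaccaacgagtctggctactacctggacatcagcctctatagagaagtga
Abcb4: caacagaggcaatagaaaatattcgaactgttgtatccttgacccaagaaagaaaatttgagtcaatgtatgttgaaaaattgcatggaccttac
Amplicons of different genes differ in how well they are copied, so levels are compared between mice for 1 gene and not between genes.

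RefSeq promoter windows on GRCm38.p6, from 250 bases before a gene's start to 50 after it, were matched by symbol for 5 of the 7 genes and not for Myod1 and Ank1. The 5 genes had 9 windows. The E-box CAGCTG, a form bound by MyoD, was searched on both strands, which read alike because the motif is its own reverse complement. A second form, CAGGTG, was searched on both strands as well, and matches of the 2 forms cannot overlap. CAGCTG was present in 5 of the 9 windows, against 16.3% of all 32851 windows of this length, and CAGGTG was present in none of the 9, against 20.2%. Either form was thus present in 5 of the 9, against 32.9% of all windows. The 5 windows belong to Mb, Pcx and Abcb4, and some windows of a gene overlap each other. The Mb windows with a match overlap and hold the same single site, so the 5 windows are not 5 separate sites. The stretches before the start are shown for Mb and Abcb4, genes of different families with one of the closest co-variations from mouse to mouse, with CAGCTG in capitals. The Mb stretch is chr15:77022728-77022977 on the minus strand, and the Abcb4 stretch is chr5:8893471-8893720 on the plus strand.
Mb promoter: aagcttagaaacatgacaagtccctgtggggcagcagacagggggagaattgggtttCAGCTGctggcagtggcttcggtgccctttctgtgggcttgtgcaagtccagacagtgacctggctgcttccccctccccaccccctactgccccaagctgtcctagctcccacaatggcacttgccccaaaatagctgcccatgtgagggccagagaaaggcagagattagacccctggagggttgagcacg
Abcb4 promoter: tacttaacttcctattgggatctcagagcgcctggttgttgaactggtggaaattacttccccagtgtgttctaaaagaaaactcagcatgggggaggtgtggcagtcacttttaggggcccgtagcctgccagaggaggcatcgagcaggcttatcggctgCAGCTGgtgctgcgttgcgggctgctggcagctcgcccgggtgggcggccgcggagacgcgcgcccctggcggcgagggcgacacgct
A match is a description of the letters in a window and does not show binding. Mb and Pcx, which both had CAGCTG in a window, were the loosest pair of the 7 genes (r = 0.757, group means removed). Ldb3 and Acacb, with neither form in any window, had r = 0.950. Whether the motif had a part in the co-variation was not tested.

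Levels are given in CPM, the count of a gene relative to the total count of its panel, after TMM scaling, which sets the bulk of the genes equal between libraries. Each tumour was read with 2 panels, and 6 of the 7 genes are on panel 1 and Myod1 is on panel 2. Library totals ran from 959532 to 2616197 counts on panel 1 and from 314621 to 841046 on panel 2, and the irradiated groups were read more deeply. The lowest counts behind a value were 4 for Myod1 and 7 for Abcb4, so the lowest levels of these genes carry the largest counting error. In 2 groups a single mouse was highest for all 7 genes. Control mouse 6 had the highest control value of all 7 genes, and BA+RT mouse 45 had the highest value of all 7 genes among the 36 mice. Mouse 6 had the lowest panel 1 total of the controls, 1060824 counts, and mouse 45 the lowest of its group, 1756429 counts. Over the genes other than the 7, the log2 CPM values of mouse 6 correlated with the mean of its group with r = 0.967, the lowest of the 36 mice. Mouse 45 had r = 0.977, and control mouse 8, whose levels of the 7 genes were not high, had r = 0.976. Whether the depth or the state of the samples of mice 6 and 45 had a part in their values was not tested. Results that rest on these 2 mice are given with and without them.

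**Figure D1:**
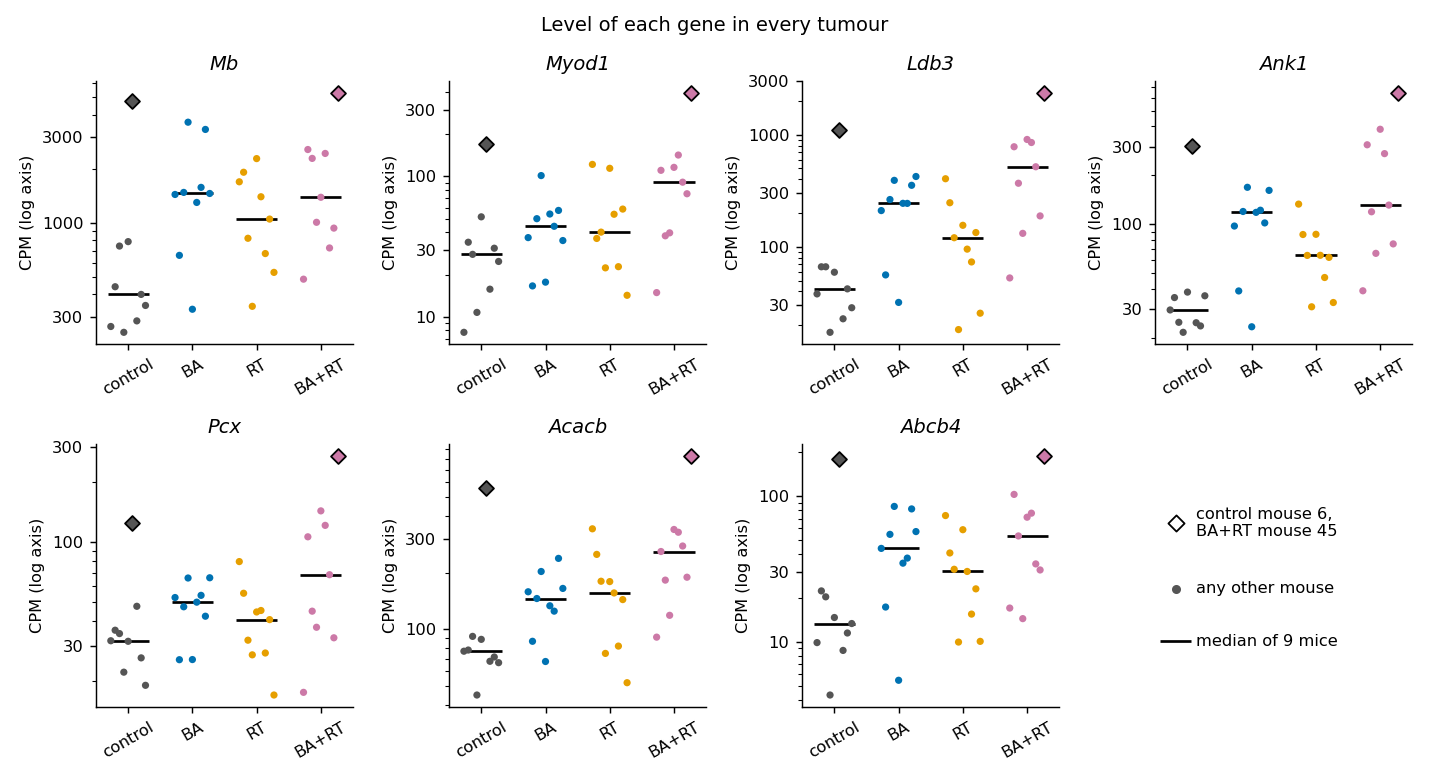
CPM of each gene on a log axis in every mouse of the control, BA, RT and BA+RT groups, with a bar at the median of 9 mice and diamonds for control mouse 6 and BA+RT mouse 45. The control diamond lies above all other control points in each panel, and the BA+RT diamond is the highest point of each panel.

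Myod1 encodes the transcription factor that commits cells to the muscle lineage. Its level in control tumours ran from 7.76 to 170 CPM with a median of 27.9 CPM. The median was 44.2 CPM with BA (16.6 to 101 CPM), 40.1 CPM with RT (14.2 to 122 CPM) and 91.1 CPM with BA+RT (14.9 to 393 CPM). All 4 groups overlapped, and apart from mouse 6 no control tumour exceeded 51.6 CPM, a level passed by 3 BA, 4 RT and 6 BA+RT tumours.

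Ldb3 encodes ZASP, a protein that holds the Z-disc together under load. Control tumours held 17.3 to 1090 CPM with a median of 42.1 CPM, and the second highest control value was 66.3 CPM. With BA the level ran from 31.9 to 423 CPM with a median of 244 CPM, and with RT from 18.2 to 404 CPM with a median of 120 CPM. With BA+RT it ran from 52.7 to 2352 CPM with a median of 517 CPM. The second highest control level was passed by 7 BA, 7 RT and 8 BA+RT tumours, and mouse 6 itself was passed only by mouse 45.

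Ank1 encodes ankyrin-1, whose short muscle form ties the sarcoplasmic reticulum to the sarcomere and whose long form anchors the membrane skeleton of red cells. Control tumours held 21.6 to 304 CPM with a median of 29.6 CPM. The median was 118 CPM with BA (23.3 to 169 CPM), 64.2 CPM with RT (31.0 to 133 CPM) and 131 CPM with BA+RT (38.9 to 642 CPM). Without mouse 6 the controls ended at 38.1 CPM, so that all 9 BA+RT tumours, 8 BA tumours and 7 RT tumours lay above them.

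Mb encodes myoglobin, the oxygen store of oxidative fibres. Control tumours held 245 to 4778 CPM with a median of 399 CPM. Mouse 6 stood far above the second highest control value of 785 CPM. The median was 1457 CPM with BA (330 to 3636 CPM), 1049 CPM with RT (342 to 2279 CPM) and 1387 CPM with BA+RT (485 to 5288 CPM). Mb was the only gene of the 7 whose median was higher with BA alone than with BA+RT. The second highest control level was passed by 7 BA, 6 RT and 7 BA+RT tumours.

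Pcx and Acacb encode mitochondrial and fat-related enzymes that muscle shares with liver and fat. Pcx, pyruvate carboxylase, refills the citric acid cycle, and its control level ran from 19.1 to 124 CPM with a median of 31.9 CPM. Its median was 49.8 CPM with BA (25.6 to 66.0 CPM), 40.7 CPM with RT (17.03 to 79.6 CPM) and 68.4 CPM with BA+RT (17.6 to 271 CPM). Pcx had the smallest spread of the 7 genes, and the fewest treated tumours above the second highest control, with 5 BA, 2 RT and 5 BA+RT tumours above its 47.5 CPM. Acacb, acetyl-CoA carboxylase 2, makes the malonyl-CoA that holds back fat oxidation at the mitochondrion. Its control level ran from 44.98 to 563 CPM with a median of 76.7 CPM. Its median was 146 CPM with BA (67.6 to 238 CPM), 156 CPM with RT (52.3 to 341 CPM) and 258 CPM with BA+RT (91.0 to 830 CPM). The second highest control value of 91.9 CPM was passed by 7 BA, 6 RT and 8 BA+RT tumours.

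Abcb4 encodes a phospholipid flippase best known from bile canaliculi of the liver, and it is also transcribed in muscle. Control tumours held 4.31 to 180 CPM with a median of 13.3 CPM. The median was 43.7 CPM with BA (5.44 to 84.8 CPM), 30.4 CPM with RT (9.95 to 73.4 CPM) and 53.2 CPM with BA+RT (14.4 to 189 CPM). The second highest control value of 22.3 CPM was passed by 7 BA, 6 RT and 7 BA+RT tumours. The medians of Myod1, Ldb3, Ank1, Pcx and Abcb4 rose in the order control, RT, BA, BA+RT. RT and BA changed places for Acacb. By the means, which mouse 6 enters in full, RT tumours were below controls for Ldb3, at 141 ± 121 against 159 ± 349 CPM (SD, n = 9), and for Pcx, at 41.02 ± 18.5 against 41.5 ± 32.1 CPM. For no pair of neighbours in these orders did the ranges of the groups separate.

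In BA+RT tumours 5 genes were higher than in control tumours, namely the lineage factor Myod1, the Z-disc gene Ldb3, the anchor gene Ank1, and the enzyme genes Pcx and Acacb. A gene was called changed when its adjusted p, from the quasi-likelihood test of edgeR with Benjamini-Hochberg adjustment over the 1038 genes, was below 0.05. Ank1 was 3.86-fold higher (log2 fold change 1.95 ± 0.53 SE, edgeR adjusted p = 0.00294) and Ldb3 4.38-fold higher (2.13 ± 0.75, edgeR adjusted p = 0.0188). Myod1 was 2.99-fold higher (1.58 ± 0.51, edgeR adjusted p = 0.0108), Pcx 2.27-fold higher (1.18 ± 0.39, edgeR adjusted p = 0.0118) and Acacb 2.30-fold higher (1.20 ± 0.44, edgeR adjusted p = 0.024). Mb had a log2 fold change of 1.05 with a 95% interval of -0.06 to 2.16 (edgeR adjusted p = 0.11), and Abcb4 one of 1.09 with an interval of -0.11 to 2.29 (edgeR adjusted p = 0.125). Of all 1038 genes 494 were called in this comparison, or 47.6%, and the count of 5 in 7 is to be read against that share. The median log2 fold change was 1.20 over the 7 genes and 0.00938 over all genes. Without BA+RT mouse 45 only Ank1 was called (log2 fold change 1.57, edgeR adjusted p = 0.0119, with 45.9% of all genes called), and without control mouse 6 all 7 were called (52% of all genes). With both left out all 7 were called as well (49.1% of all genes). With only the control and BA+RT groups in the fit Myod1 and Ank1 were called (42.7% of all genes), and the calls of Ldb3, Pcx and Acacb were lost at nearly the same fold changes (edgeR adjusted p = 0.0565, 0.051 and 0.0659). Limma on the authors' deposited log2 values called all 7 (49.3% of all genes). Both mice were left out because they held the highest values of these genes in their groups. The refits therefore describe how far the calls rest on these mice and are no independent tests.

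BA alone and RT alone were compared with the same control tumours, so the comparisons share them and are given side by side. With BA none of the 7 genes was called by edgeR, and none had an unadjusted p below 0.05, while 280 of 1038 genes were called (27%). DESeq2 also called none of the 7. The log2 fold changes with BA ran from 0.21 (Pcx) to 0.88 (Mb), all above 0, with a median of 0.59. For Mb the 95% interval ran from -0.23 to 1.99 (edgeR adjusted p = 0.243), so it held both a small fall and a large rise. With RT none of the 7 was called by edgeR or by DESeq2 and none had an unadjusted p below 0.05, while 432 of 1038 genes were called (41.6%). The log2 fold changes with RT ran from -0.14 (Ldb3) to 0.49 (Myod1), with a median of 0.20. For Ldb3 the 95% interval ran from -1.63 to 1.35, so it held both a large fall and a large rise.

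These comparisons turned on control mouse 6. It was left out for its high values of these same genes, so the refits are no independent tests. Without it Mb, Ldb3, Ank1, Acacb and Abcb4 were called higher both with BA (27.2% of all genes called) and with RT (46.2% of all genes called). With BA, Ldb3 then had a log2 fold change of 2.54 ± 0.63 (edgeR adjusted p = 0.00281) and Mb one of 1.94 ± 0.46 (edgeR adjusted p = 0.00194). With RT, Ldb3 had one of 1.74 ± 0.62 (edgeR adjusted p = 0.0207) and Mb one of 1.44 ± 0.45 (edgeR adjusted p = 0.00949). Myod1 and Pcx were not called in either, at 0.85 and 0.61 with BA (edgeR adjusted p = 0.271 and 0.229) and at 1.07 and 0.39 with RT (edgeR adjusted p = 0.0924 and 0.396). With BA+RT, Ldb3 then stood at 4.01 ± 0.66 (16.1-fold, edgeR adjusted p = 7.54e-06). The median over the 7 genes became 1.82 in BA, 1.20 in RT and 2.17 in BA+RT tumours, while the median of all genes stayed between -0.000291 and 0.00799.

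**Figure D2:**
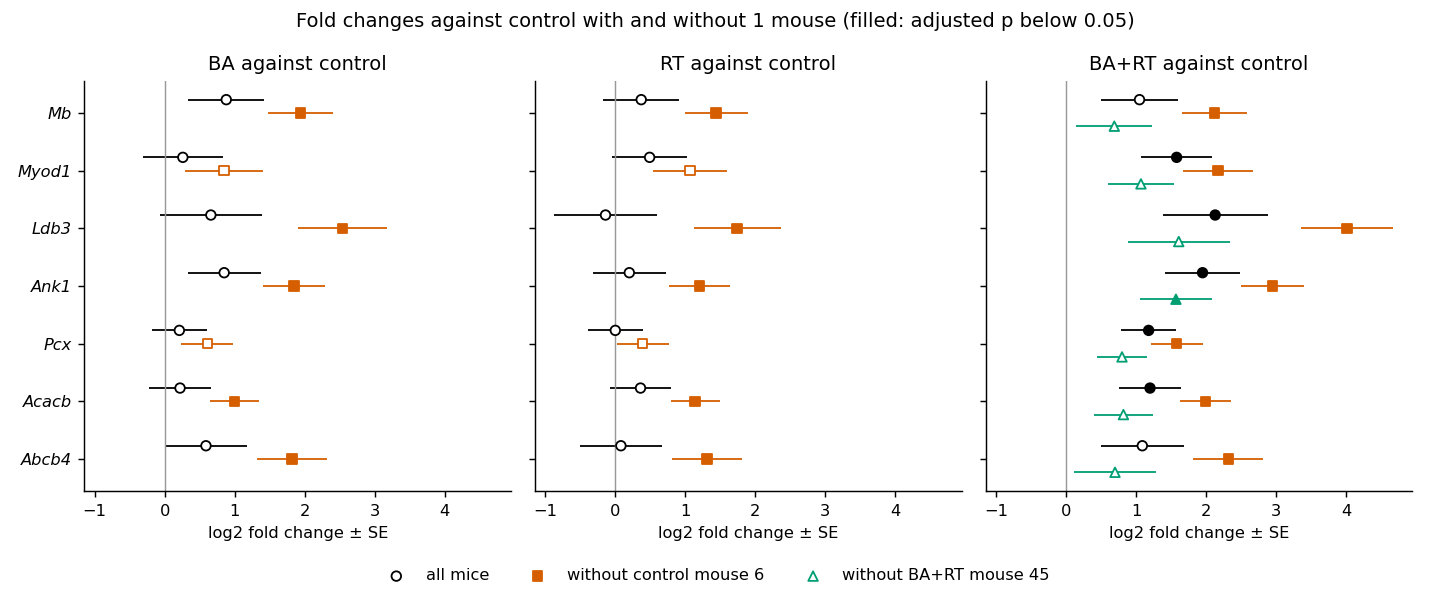
Log2 fold change against control with its standard error for each gene in the BA, RT and BA+RT groups, from all mice (circles), without control mouse 6 (squares) and without BA+RT mouse 45 (triangles, BA+RT only), with filled symbols for adjusted p below 0.05. With all mice only 5 symbols of the BA+RT panel are filled, and without mouse 6 all squares lie to the right of the circles.

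BA added to radiation was tested by comparing BA+RT with RT. Ldb3, Ank1 and Pcx were higher, by 4.83-fold (2.27 ± 0.75, edgeR adjusted p = 0.0445), 3.35-fold (1.75 ± 0.52, edgeR adjusted p = 0.0248) and 2.28-fold (1.19 ± 0.39, edgeR adjusted p = 0.0404). All 7 fold changes were above 1, and those of Mb, Myod1, Acacb and Abcb4 did not pass the test. Of all genes 112 were called, or 10.8%. Without mouse 45 none of the 7 was called by edgeR (14.6% of all genes), with Ank1 nearest at 1.37 (edgeR adjusted p = 0.0655). With scaling to the reference genes of the panels only Ank1 was called (11.1% of all genes), and Ldb3 and Pcx stood at 2.23 and 1.15 (edgeR adjusted p = 0.0581 and 0.0623). Pcx also lost its call with only these 2 groups in the fit (edgeR adjusted p = 0.0875) and with limma on the deposited values (limma adjusted p = 0.109). The calls of Ldb3 and Pcx also ended without any 1 of RT mice 21 to 27 or BA+RT mice 38, 41 and 42, with the fold changes nearly as before (Ldb3 2.12 to 2.29, Pcx 1.08 to 1.22) and edgeR adjusted p between 0.0538 and 0.0744.

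Radiation added to BA was tested by comparing BA+RT with BA alone. Myod1 was 2.50-fold higher (1.32 ± 0.51, edgeR adjusted p = 0.0294) and Pcx 1.96-fold higher (0.97 ± 0.39, edgeR adjusted p = 0.0339). Of all genes 555 were called, or 53.5%, a larger share than the 2 of 7. Ldb3 had a log2 fold change of 1.47 with a 95% interval of -0.01 to 2.95 (edgeR adjusted p = 0.0869), and Mb one of 0.17 with an interval around 0 (edgeR adjusted p = 0.8). Without mouse 45 none of the 7 was called (50.3% of all genes), and the value of Mb turned to -0.19. The call of Myod1 also ended without BA mouse 11 or 14, and that of Pcx without BA mouse 11 or 14 or BA+RT mouse 41 or 42, with edgeR adjusted p between 0.0537 and 0.0681. Ank1 was called without BA+RT mouse 37 or 40, and Acacb without BA mouse 17 or BA+RT mouse 37, 39 or 40. DESeq2 called Acacb with all mice as well (log2 fold change 0.99, DESeq2 adjusted p = 0.0307). With only these 2 groups in the fit Myod1, Ldb3 and Acacb were called and Pcx was not (edgeR adjusted p = 0.0559, 54.9% of all genes called). With reference genes Myod1, Ank1, Pcx and Acacb were called (59.6% of all genes), and limma on the deposited values called none of the 7 (53.8% of all genes), with Myod1 nearest (limma adjusted p = 0.0534). The interaction, which asks whether BA changed a gene by another amount in irradiated tumours, gave no call among the 7 by edgeR or by DESeq2 and no unadjusted p below 0.05. In it 86 of 1038 genes were called (8.29%). Its estimates ran from -0.20 (Mb) to 1.61 (Ldb3), with a median of 0.83, and without mouse 6 the median was -0.16.

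From mouse to mouse the 7 genes moved together, which is how they were selected. After the group means were taken from the log2 CPM values, the 21 pairs of genes had a median Pearson r of 0.883 over the 36 mice. The closest pair was Ldb3 and Ank1 (r = 0.951) and the loosest Mb and Pcx (r = 0.757), while Mb and Abcb4, whose promoter stretches are shown, had r = 0.932. The median was 0.908 within control, 0.900 within BA, 0.900 within RT and 0.930 within BA+RT tumours. Without mice 6 and 45 it was 0.828. Against the mean of the other 6 genes, Ldb3 had r = 0.972, Ank1, Acacb and Abcb4 each 0.952, Mb 0.898, Myod1 0.895 and Pcx 0.888. Myod1 was counted on the other panel, so its co-variation joins separate libraries of the same tumours. All genes of 1 panel share that library's depth, and the mean of the 7 genes, standardized and with group means removed, correlated with the log2 library total with r = -0.485 on panel 1 and -0.365 on panel 2. The part of depth in the co-variation was not tested.

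The genes did not move by equal amounts. For each doubling of Mb, Ldb3 changed by 1.24 log2 units, Abcb4 by 1.004, Ank1 by 0.81, Myod1 by 0.80, Acacb by 0.67 and Pcx by 0.56. These are least squares slopes of the deviations from group means, which also fall as the correlation with Mb falls. The ratio of Ldb3 to Mb also differed between groups in its median, at -3.46 in control, -2.77 in BA, -3.18 in RT and -1.71 in BA+RT tumours on the log2 scale. This ratio was picked after its values were seen and is given without a test. It ran from -3.74 to -2.13 in controls and from -3.17 to -0.48 in BA+RT tumours, so the groups overlapped, and its highest value was in BA+RT mouse 43, whose Mb of 724 CPM was the second lowest of its group.

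**Figure D3:**
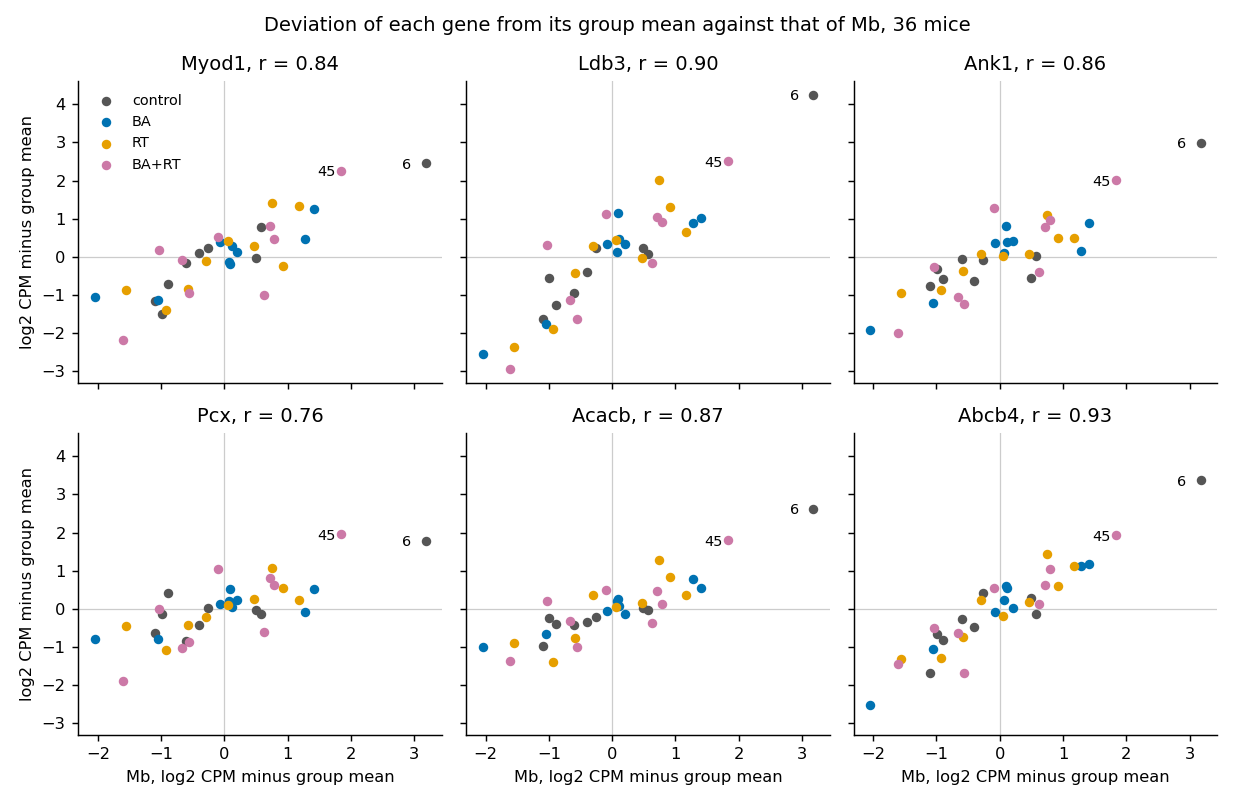
Log2 CPM minus the group mean of each of the other 6 genes against that of Mb in 36 mice, coloured by group, with control mouse 6 and BA+RT mouse 45 numbered and Pearson r above each panel. Points of all 4 groups lie along a rising band in each panel, steepest for Ldb3 and flattest for Pcx, and mouse 6 lies at its upper end.

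As 1 value per tumour, the mean log2 CPM of the 7 genes had a median of 5.49 in control (4.72 to 8.80), 7.02 in BA (5.14 to 7.82), 6.60 in RT (5.21 to 7.77) and 7.36 in BA+RT tumours (5.59 to 9.56). The highest tumours were mouse 45 and then control mouse 6, and the lowest was control mouse 4. Apart from mouse 6 no control tumour exceeded 6.02.

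Other genes of muscle were read from a list of 72, of which Pvalb, Mef2c, Sgcb and Ncam1 were on the panels. The myosins, troponins and skeletal actin that define a muscle fibre are among the other genes of that list, which were not on the panels. The tissue source of the 7 genes therefore rests on few markers. Pvalb, the parvalbumin of fast fibres, held 15.4 to 231 CPM in 8 controls and 3116 CPM in mouse 6. It ran from 110 to 1905 CPM with BA, from 20.5 to 668 CPM with RT and from 72.4 to 5704 CPM with BA+RT, and its median was 64.0, 928, 181 and 765 CPM in the order control, BA, RT, BA+RT. Over 36 mice, group means removed, it followed the mean of the 7 genes with r = 0.945 (Spearman rho 0.897), and with r = 0.915 without the 2 mice farthest from the median, mice 6 and 37. Mef2c, a partner of MyoD that is also made in B cells and vessels, had r = 0.946 (rho 0.936), and 0.924 without the same mice. Sgcb, a part of the membrane complex that protects fibres, had r = 0.758 (rho 0.615) and 0.716. Ncam1, an adhesion molecule of regenerating fibres and of nerve and natural killer cells, had r = 0.719 (rho 0.678) and 0.634. These correlations are descriptions with no test, as the 7 genes were selected on these mice.

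Between groups the 4 genes did not change alike. In BA+RT against control Mef2c was higher (log2 fold change 0.87 ± 0.33, edgeR adjusted p = 0.0301) and Ncam1 lower (-0.52 ± 0.19, edgeR adjusted p = 0.0237). Pvalb stood at 1.87 (edgeR adjusted p = 0.0715) and Sgcb at 0.17 (edgeR adjusted p = 0.149), neither called. With BA alone Ncam1 was lower by 1.92-fold (-0.94 ± 0.19, edgeR adjusted p = 0.000377), and with RT none of the 4 was called by edgeR. Without control mouse 6 Pvalb was called higher with BA (3.62, edgeR adjusted p = 0.000572) and with BA+RT (4.21, edgeR adjusted p = 3.77e-05), Sgcb was called higher with BA+RT (0.27, edgeR adjusted p = 0.00535), and Ncam1 lost its call with BA+RT (edgeR adjusted p = 0.0757). Without mouse 45 Mef2c lost its call (edgeR adjusted p = 0.166).

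Across the 1031 other genes tested, the correlation with the mean of the 7 genes had a median of -0.0631 and a wide spread, with 5% of genes below -0.724 and 5% above 0.789. Among the genes with the highest r were Rora (0.961), Prkcq (0.957), Mef2c (0.946), Pvalb (0.945), Egf (0.941), Dysf (0.940) and Tsc22d3 (0.935). Without mice 6 and 37 their r ran from 0.905 (Dysf) to 0.9405 (Rora). Dysf encodes dysferlin, which reseals the membrane of muscle fibres, and Prkcq a protein kinase C of T cells and skeletal muscle. Rora is a nuclear receptor, Egf a growth factor, and Tsc22d3 a gene induced by glucocorticoids. In control mouse 6 Prkcq stood at 455 CPM against 15.4 to 91.9 CPM in the other 8 controls, Dysf at 1093 against 188 to 380 CPM, and Rora at 693 against 115 to 158 CPM. The lowest r were those of Galc (-0.875), 4632428N05Rik, the gene of the checkpoint protein VISTA (-0.873), and Nfib (-0.863). In mouse 6 Galc stood at 380 CPM against 563 to 681 CPM in the other 8 controls. Values of 1 panel share its library.

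Lists of other cell types that such a piece of tissue could hold were set beside the 7 genes. Both measured genes of fat cells followed them, Fabp4, a fatty acid carrier, with r = 0.774 and Pparg, the regulator of fat cell formation, with r = 0.706. Without mice 6 and 37 these values were 0.724 and 0.687. The summed level of these 2 genes was 304 to 2698 CPM in controls, 260 to 1008 CPM with BA, 177 to 1745 CPM with RT and 126 to 2845 CPM with BA+RT. This sum is mostly Fabp4, with a mean of 786 CPM over 36 mice against 15.85 CPM for Pparg. Mouse 6 had the highest control sum, and another control followed at 2460 CPM. Of the energy genes that muscle shares with fat, the fatty acid transporter Cd36 had r = 0.928 and the nuclear receptor Ppara r = 0.789. Without mice 6 and 37 they had r = 0.894 and 0.671. Their sum in mouse 6 was 2376 CPM against at most 697 CPM in the other controls. This sum is mostly Cd36, with a mean of 481 CPM over 36 mice against 17.98 CPM for Ppara. Pcx, Acacb and these genes are active in fat as well as in muscle, and the part of fat cells in their levels was not tested.

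For other cell types the listed genes that were measured followed the 7 genes less closely, by their medians. The 2 genes of the red cell lineage, Tal1 and Epor, bear on Ank1 and had a median r of 0.317, with sums of at most 35.4 CPM in any control. The 4 other ABC transporters measured, which bear on Abcb4, had r between -0.369 (Tap2) and 0.690 (Abcg2), with a median of 0.00495. The median was 0.599 over 5 genes of fibroblasts and matrix, with Dcn at 0.789 and Fn1 at -0.768, and 0.287 over 3 genes of smooth muscle and pericytes. It was 0.435 over 3 proliferation genes, 0.214 over 3 epithelial genes with Epcam at -0.486, -0.0173 over 12 leukocyte genes and -0.153 over 2 endothelial genes. These medians depend on which genes were listed. Of the 1031 other genes tested, 49 had r above 0.8. Among them was Cd163, a macrophage gene outside the lists, at 0.824, while the macrophage gene Adgre1 of the leukocyte list stood at -0.274. No difference between lists was tested.

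**Figure D4:**
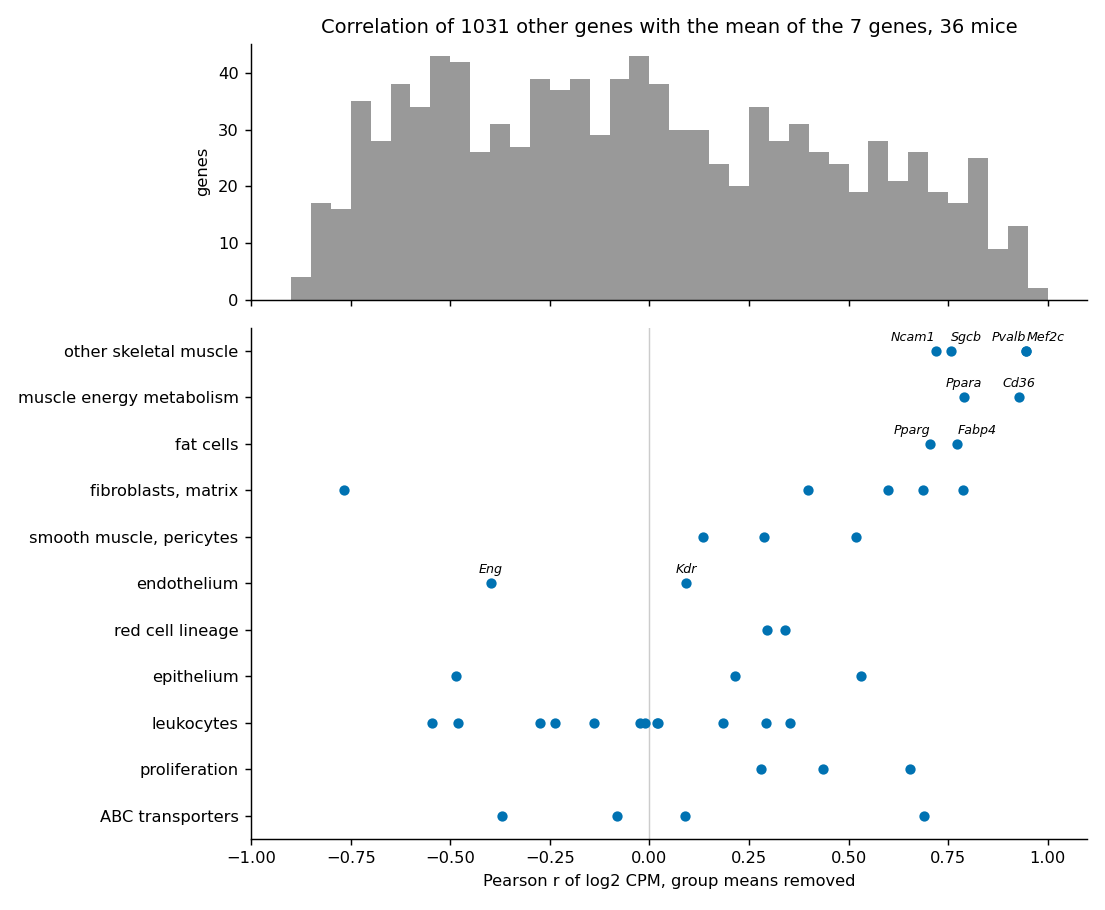
Top, number of genes in each bin of Pearson r between a gene and the mean of the 7 muscle genes over 36 mice with group means removed, for 1031 other genes; bottom, the same r for each measured gene of 11 lists. Genes of the muscle, energy and fat lists lie at r above 0.7, while leukocyte genes lie on both sides of 0.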

How the data were processed

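Per the labels, tumour RNA of 36 mice was read with 2 targeted amplicon panels (72 libraries, 992 and 286 gene amplicons). The deposited table held whole-number counts per amplicon. The aligner, the counter and the kind of count (of reads or of molecular barcodes) were not given in the sources used here. Another table of the authors held log2-scale regularized values of DESeq2 (tool per the submitters' processing notes, version not given), used for 1 alternative. No column belonged to another sample. Position columns are headed GRCh38 in the deposited file, but 1277 of 1278 amplicons lay inside the named mouse gene on GRCm38 (GENCODE M21). Genomic DNA control rows, 2.32e-05% of counts, were left out.

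Counts were fitted with edgeR 4.0.16 (R 4.3.3) by panel with all 4 groups, TMM scaling, the default expression filter and the robust quasi-likelihood test, two-sided. The edgeR fit was also run on counts simulated for each gene on its own, with no tumour standing apart as mouse 6 did. That run does not bear on calls that rest on single mice. Genes on both panels (54, none of the 7) were taken from the panel with the larger total. The standard error is the absolute log2 fold change over the square root of F, and 95% intervals use 32 residual degrees of freedom. Per-mouse values are log2 CPM with a prior count of 2 for correlations. Alternatives used DESeq2 1.42.0 and limma 3.58.1, other scalings and filters, 2 groups at a time, and leaving out each mouse in turn. Leaving out mice 6 and 45 together, and DESeq2 without replacement of extreme counts, were added after seeing the data.

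The members and lists were chosen with earlier results of these data known. Named genes were the 7 members, every listed muscle gene on a panel, the 8 genes of highest and 3 of lowest correlation with the mean of the 7, and up to 3 of the most abundant genes of another list. 1 gene that this rule names is not reported here. Genes of other lists at the ends of the range of r (Dcn, Tap2), and Cd163 and Adgre1, were named after their values were seen.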

Additional observations from a re-analysis of the deposited data

Results flagged for a closer look

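Control mouse 6 lay apart from the other 8 control tumours in 6 of the 7 genes on the log2 CPM scale. The gap between mouse 6 and the next control, as a share of the whole control range, was 0.789 for Ank1, 0.72 for Acacb, 0.682 for Ldb3, 0.609 for Mb, 0.584 for Abcb4 and 0.519 for Pcx, all beyond the 95% critical value of Dixon's test for 9 values. The test marks about 1 in 20 groups by chance, and the 6 marks are 1 tumour seen in genes that move together, not 6 separate events. For Myod1 the share was 0.419, within the limit. No tumour of the BA, RT or BA+RT groups was marked for any of the 7 genes, mouse 45 included.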

How the results depend on the processing

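No paired analysis was possible because mouse numbers are not shared between groups. In RT against control the log2 fold change of Ldb3 was 0.39 with limma on the deposited values, and that of Pcx was 0.00 with total counts, 0.17 with factors from the 9 reference genes and 0.03 with limma. In the interaction Abcb4 stood at -0.03 with limma. For BA+RT, 2 of the 7 genes (Myod1 and Ank1) were called against control with only these 2 groups in the fit (42.7% of all genes), 1 (Ank1) was called against RT with reference genes (11.1%), and against BA 4 were called with reference genes (59.6%) and 0 with limma (53.8%; DESeq2 called 3, 55.3%). With reference genes the all-gene median (log2) was 0.188 in RT and 0.143 in BA+RT against control and 0.199 in BA+RT against BA (-0.00975, 0.00938 and 0.0205 with TMM), with calls then split 422 higher to 79 lower, 387 to 157 and 472 to 147 (213 to 219, 243 to 251 and 281 to 274 with TMM). They called the same 5 members against control. With BA the split was 99 to 183 (130 to 150 with TMM), and in BA+RT against RT 19 to 96 (38 to 74 with TMM). The median correlation of the 7 genes was 0.833 by Spearman and 0.908, 0.9, 0.9 and 0.93 within control, BA, RT and BA+RT.

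Leaving out mice, singly or mice 6 and 45 together, gave 0 to 5 of the 7 genes called in RT against control (398 to 506 of all 1038 genes) and 0 to 5 in BA against control (242 to 349). It gave 1 to 7 in BA+RT against control (461 to 540), 0 to 3 against RT (76 to 171) and 0 to 4 against BA (511 to 568). Log2 fold changes in RT against control ran from -0.52 to 1.74 (Ldb3), -0.18 to 0.39 (Pcx) and -0.17 to 1.31 (Abcb4), and that of Mb in BA+RT against BA from -0.19 to 0.40. Interaction values ran from -1.63 to 0.02 (Mb), -0.27 to 1.09 (Myod1), -0.80 to 1.99 (Ldb3), -0.48 to 1.08 (Ank1), -0.54 to 0.84 (Acacb) and -1.20 to 0.67 (Abcb4). The correlation ran from 0.828 to 0.899. Apart from the fewer samples or groups in a fit, the cause was not tested. Counts of 4 to 7 for Myod1 and Abcb4 in the lowest tumours limit the precision there.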
